A study of Mus musculus with 6 samples.

Results

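Toll-like receptors are germline-encoded receptors of innate immune cells, and the transcripts of 9 of them, together with that of the lipopolysaccharide (LPS) co-receptor Cd14, were examined in J774 macrophages that had received either a control siRNA or an NCOA4 siRNA. The 10 genes were picked by name and matched to the Ensembl identifiers of the deposited files through GENCODE M21 (GRCm38), out of 55487 identifiers in all. Each of the 10 was found, and each passed the filter on low values. J774 is a mouse macrophage line, grown in medium with serum, and the labels name no microbial stimulus and no time after transfection. NCOA4 is the cargo receptor that delivers ferritin to the lysosome. In each of the 2 groups 3 biological replicates were profiled by stranded poly(A) RNA-seq, and by the labels the groups differed only in the siRNA, which liposomes delivered. NCOA4 was targeted by a single siRNA in a single cell line, so an effect of the siRNA sequence and an effect of NCOA4 loss cannot be told apart. The comparison asks how NCOA4-deficient macrophages differ from control cells in the receptors by which they sense microbes.

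Toll-like receptors recognise microbial molecules through leucine-rich repeats and signal through a cytoplasmic TIR domain, which recruits the adaptors Myd88 or Ticam1 and leads to NF-kB and IRF activation. Tlr1, Tlr2, Tlr4 and Tlr6 work at the cell surface, where Tlr2 pairs with Tlr1 or Tlr6 to bind bacterial lipopeptides. Tlr4 binds LPS with its partner Ly96, and Cd14 hands LPS over to that complex. Tlr3, Tlr7, Tlr8, Tlr9 and Tlr13 survey nucleic acids in endosomes and depend on the chaperone Unc93b1 to get there.

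Values are given as TPM, that is, reads per gene length scaled to a fixed total in each library, so levels can be compared between genes. Differences are log2 fold changes of TPM + 0.5 with NCOA4 siRNA against control siRNA, and p-values come from limma over 13829 genes with Benjamini-Hochberg adjustment. Called genes had both an adjusted p below 0.05 and a change of more than 1.5-fold, the study's thresholds. In bulk RNA, a change in the share of cells with a transcript and a change in RNA per cell cannot be told apart. Whole reads rebuilt from TPM and gene length numbered 15502131 to 18282107 per library. Ncoa4 itself had 19.7, 22.5 and 22.4 TPM in the control libraries and 9.63, 8.60 and 8.88 TPM in the NCOA4 siRNA libraries, 41.9% of the control mean. Control replicate 1 stood apart, with a chi-square per gene of 11.6 and 11.7 against the other control replicates, where these differed by 3.60 from each other and the NCOA4 siRNA replicates by 1.96 to 2.35. All 10 macrophage markers were tested, and 4 rose and 1 fell at an adjusted p under 0.05 by limma. The share among all tested genes was 5.42%. Cd14 fell, and Adgre1, Fcgr1, Mertk and Csf1r rose (adjusted p from 0.00436 to 0.0248 by limma). Adgre1 and Fcgr1 were also called, at fold changes of 1.53 and 1.51. Without overlap between the groups, 7 markers were higher and 2 lower, Cd14 and Cd68. Cd68 had a log2 fold change of -0.22 (adjusted p = 0.178 by limma). The part of these markers in the receptor results was not tested. In contrast, 11 of 12 markers of other cell types fell under the filter and 7 of them were at 0 in every library. The exception was Cdh5, an endothelial cadherin, at no more than 1.14 TPM.

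Promoters were read from RefSeq (GRCm38.p6) for the 10 genes only, and those of the 3 receptors among them that passed the adjusted p threshold are shown. Tlr5, outside the 10 genes, was not looked up. The promoter windows of 300 bases run from 250 before to 50 after a transcription start. Windows were found for 7 of the 10 genes. Tlr4, Tlr7 and Cd14 had no entry in that table. Each window was searched on both strands for the NF-kB consensus, the PU.1 core GAGGAA, the AP-1 element TGANTCA and the core of the interferon-stimulated response element. Capitals mark matches. The windows of these 3 receptors are shown so that they can be compared.

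Tlr2 (chr3:83841559-83841858, minus strand): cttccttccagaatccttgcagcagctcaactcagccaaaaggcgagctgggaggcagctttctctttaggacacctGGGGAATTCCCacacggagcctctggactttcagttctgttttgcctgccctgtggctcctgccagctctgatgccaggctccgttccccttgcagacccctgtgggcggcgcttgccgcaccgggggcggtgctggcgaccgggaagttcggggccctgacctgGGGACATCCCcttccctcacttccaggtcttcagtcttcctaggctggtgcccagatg
Tlr8 (chrX:167264280-167264579, minus strand): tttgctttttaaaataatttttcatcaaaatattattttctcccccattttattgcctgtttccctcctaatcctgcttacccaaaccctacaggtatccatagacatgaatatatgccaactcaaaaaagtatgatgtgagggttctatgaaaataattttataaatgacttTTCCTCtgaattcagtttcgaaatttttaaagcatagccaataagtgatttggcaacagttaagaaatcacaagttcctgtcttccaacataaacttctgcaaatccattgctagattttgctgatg
Tlr1 (chr5:64933509-64933808, minus strand): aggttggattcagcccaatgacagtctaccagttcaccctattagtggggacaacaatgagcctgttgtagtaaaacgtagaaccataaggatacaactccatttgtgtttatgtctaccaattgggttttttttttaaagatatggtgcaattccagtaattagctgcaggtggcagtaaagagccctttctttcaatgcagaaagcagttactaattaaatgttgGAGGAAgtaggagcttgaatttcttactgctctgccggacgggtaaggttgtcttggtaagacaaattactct

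In the Tlr2 window the NF-kB consensus matched at -173 and -172, which overlap, and again at -8, counted from the start site. In the Tlr8 window the only match was a PU.1 core on the opposite strand, at -77, and in the Tlr1 window it was a PU.1 core at -23. A second Tlr1 start in RefSeq had 0 matches to any of the 4 motifs. The 7 genes had 9 windows in all, since Tlr1 and Tlr6 each had a pair. Of these 9 windows, 4 held a PU.1 core (Tlr1, Tlr8, Tlr9 and Tlr13) and 2 an NF-kB consensus (Tlr2 and Tlr3). The AP-1 element was found in 1 window, of Tlr9, and the interferon element in 1 window, of Tlr6. Among all 32851 promoter windows of the same length, 28.3% held a PU.1 core, 8.46% an NF-kB consensus, 7.81% an AP-1 element and 3.44% the interferon element. A match is a string of letters in the window and not evidence of binding.

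The level of the transcripts spanned a wide range. Cd14 was the most abundant in control cells at 1174 ± 68.8 TPM, above 99.2% of the tested genes. Tlr2 followed at 89.2 ± 5.91 TPM, then Tlr13 at 59.3 ± 4.60, Tlr4 at 54.5 ± 6.01, Tlr7 at 41.6 ± 2.93 and Tlr1 at 31.6 ± 0.561 TPM (SD, n = 3). Tlr8 at 12.2 ± 2.19, Tlr6 at 9.97 ± 1.35 and Tlr9 at 9.73 ± 0.909 TPM were lower, and Tlr3 was last at 1.43 ± 0.320 TPM (SD, n = 3). Neighbours in this order whose control values overlapped were Tlr13 with Tlr4, Tlr8 with Tlr6, and Tlr6 with Tlr9. With NCOA4 siRNA the values of Tlr8 lay above those of Tlr9 and Tlr6 in every library without overlap, and Tlr9 lay above Tlr6. Tlr1 then overlapped with Tlr7, the next gene above it, and Tlr4 overlapped with Tlr13. Summed over the 9 receptors, the level was 289.6 to 330.2 TPM in control libraries and 367.6 to 375.2 TPM in NCOA4 siRNA libraries. Tlr2 held 27.8% to 30.2% of that sum with control siRNA and 34.8% to 37.8% with NCOA4 siRNA.

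**Figure D1:**
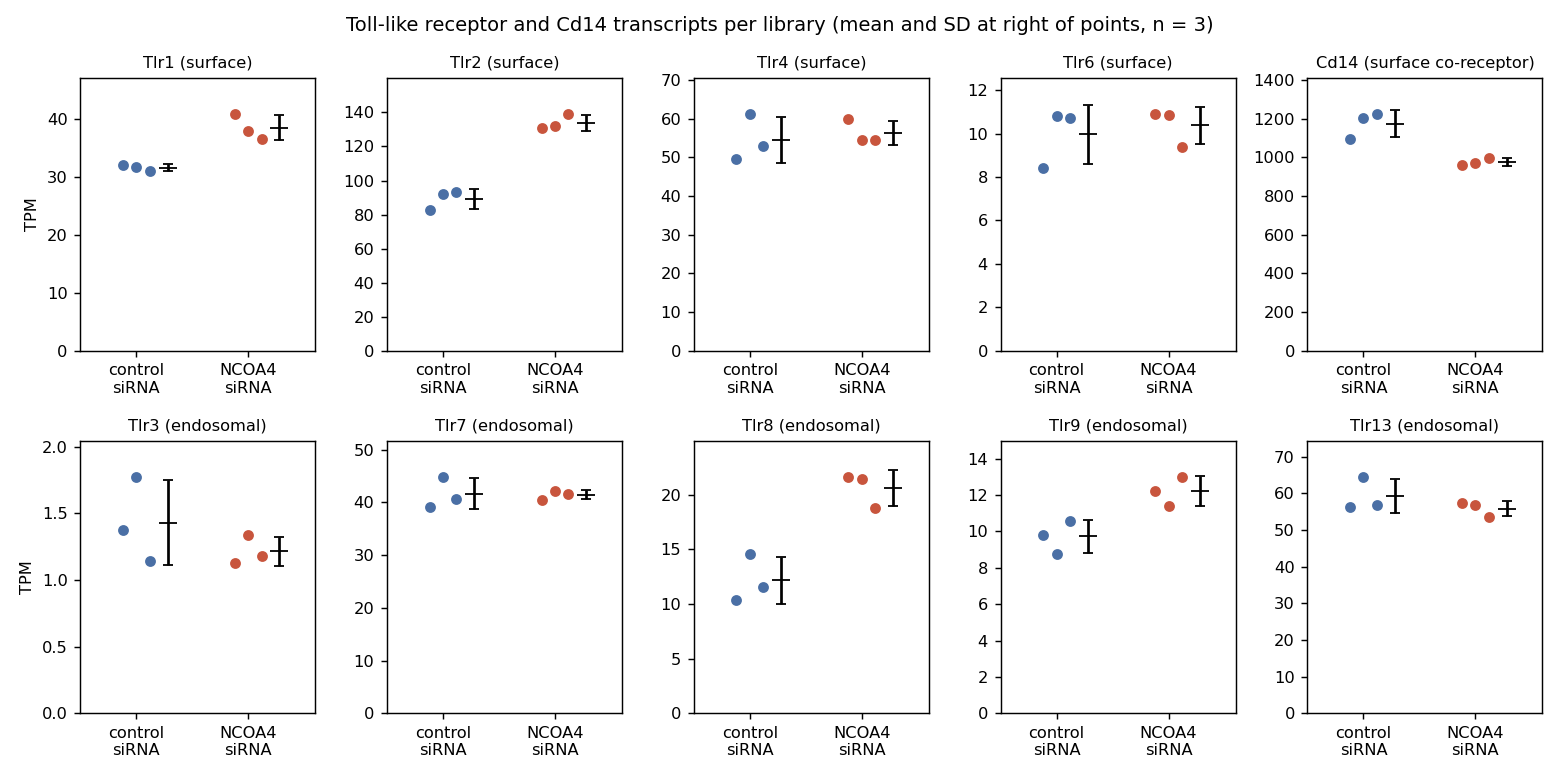
TPM of each of the 10 genes (vertical axis, from 0) in the 3 control siRNA and 3 NCOA4 siRNA libraries (points, replicates 1 to 3 from left to right), with the mean and SD at the right. Tlr1, Tlr2, Tlr8 and Tlr9 lie higher and Cd14 lower with NCOA4 siRNA without overlap, whereas the other 5 genes overlap.

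Of the 10 genes, 3 rose (Tlr1, Tlr2 and Tlr8) and 1 fell (Cd14) at an adjusted p under 0.05 by limma. Among all tested genes 5.42% passed this threshold, 3.11% higher and 2.31% lower. With libraries centred on their medians the balance of these calls over all genes turned, with 348 of 970 genes higher in place of 430 of 750, while the 4 named here kept their direction. Tlr2 and Tlr8 also passed the fold change threshold and were called, against 1.18% of all tested genes called and 0.861% called higher. The median log2 fold change was 0.05 over the 10 genes and 0.03 over all tested genes. The groups did not overlap in 5 of the 10 genes, 4 higher and 1 lower, where the share among all tested genes was 28.4% (16.6% higher, 11.8% lower).

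Among the surface receptors, Tlr2 (ENSMUSG00000027995, chromosome 3, 83836272 to 83841767, minus strand) had 82.4, 91.8 and 93.3 TPM in control replicates 1 to 3, and the NCOA4 siRNA replicates in the same order had 131, 132 and 139 TPM. Behind them stood 1426 to 1677 reads per control library and 2168 to 2530 per NCOA4 siRNA library. Every NCOA4 siRNA library lay above every control library, and control replicate 1 was the lowest. The log2 fold change was 0.59 ± 0.0577 (estimate ± standard error, adjusted p = 0.00451 by limma). Its adjusted p stayed under 0.05 in all 16 alternative settings and left-out libraries. Its fold change was 1.5007, just inside the threshold of 1.5. It stayed above that threshold in 10 of the 16. These include the changed filters, eBayes without a trend and the replicate block, which cannot alter a fold change. Leaving out control replicate 1 gave 1.44, and leaving out NCOA4 siRNA replicate 3 gave 1.47.

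Of the partners of Tlr2, Tlr1 passed the adjusted p threshold and Tlr6 did not. Tlr1 (ENSMUSG00000044827, chromosome 5, 64924679 to 64933563, minus strand), which pairs with Tlr2 to bind triacylated lipopeptides, had 32.1, 31.8 and 31.0 TPM with control siRNA and 40.9, 38.0 and 36.6 TPM with NCOA4 siRNA. The groups did not overlap, and Tlr1 rose by 0.28 ± 0.0534 on the log2 scale (estimate ± standard error, adjusted p = 0.0330 by limma). The adjusted p of Tlr1 rose to between 0.0740 and 0.125 when any library other than control replicate 1 was left out, and to 0.0579 with median centring. Tlr6 (ENSMUSG00000051498, chromosome 5, 64952031 to 64960097), the partner for diacylated lipopeptides, had 8.41, 10.8 and 10.7 TPM with control siRNA and 10.9, 10.8 and 9.38 TPM with NCOA4 siRNA. Its groups overlapped, its log2 fold change was 0.06 and its 95% interval ran from -0.21 to 0.33 (adjusted p = 0.809 by limma). These neighbouring genes lie 18467 bases apart and share 259 windows of 100 bases, out of 3282 in Tlr1 and 3652 in Tlr6, so reads there could have been lost or assigned to the wrong gene. Within libraries, Tlr1 exceeded Tlr6 by a ratio of 3.22 ± 0.520 in control cells and 3.72 ± 0.203 in NCOA4 siRNA cells (SD, n = 3 each), and the groups overlapped (exact permutation test, two-sided p = 0.3).

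Tlr4 (ENSMUSG00000039005, chromosome 4, 66827584 to 66930284, plus strand), the LPS receptor, had 49.6, 61.2 and 52.8 TPM with control siRNA and 60.0, 54.5 and 54.4 TPM with NCOA4 siRNA. All 3 NCOA4 siRNA values lay within the range of the control values. The log2 fold change was 0.05, with a 95% interval from -0.15 to 0.25 (adjusted p = 0.784 by limma), so a change of 1.5-fold in either direction lies outside the interval. Cd14 (ENSMUSG00000051439, chromosome 18, 36725067 to 36726798, minus strand), which transfers LPS to Tlr4, had 1096, 1203 and 1224 TPM with control siRNA and 958, 970 and 996 TPM with NCOA4 siRNA. Every NCOA4 siRNA library was below every control library. The log2 fold change was -0.27 ± 0.0525 (estimate ± standard error, adjusted p = 0.0361 by limma), a level of 83.0% of control that did not reach the fold change threshold. Without any single library other than control replicate 1, the adjusted p of Cd14 rose to between 0.0871 and 0.158, and without the filter on low TPM to 0.0879. Control replicate 1 was the lowest of the control libraries for 7 of the 10 genes, Cd14 among them, and without it the log2 fold change of Cd14 was -0.32. Without that library Tlr1, Tlr2, Tlr8 and Cd14 still had adjusted p-values under 0.05 by limma, and Tlr8 alone was called.

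**Figure D2:**
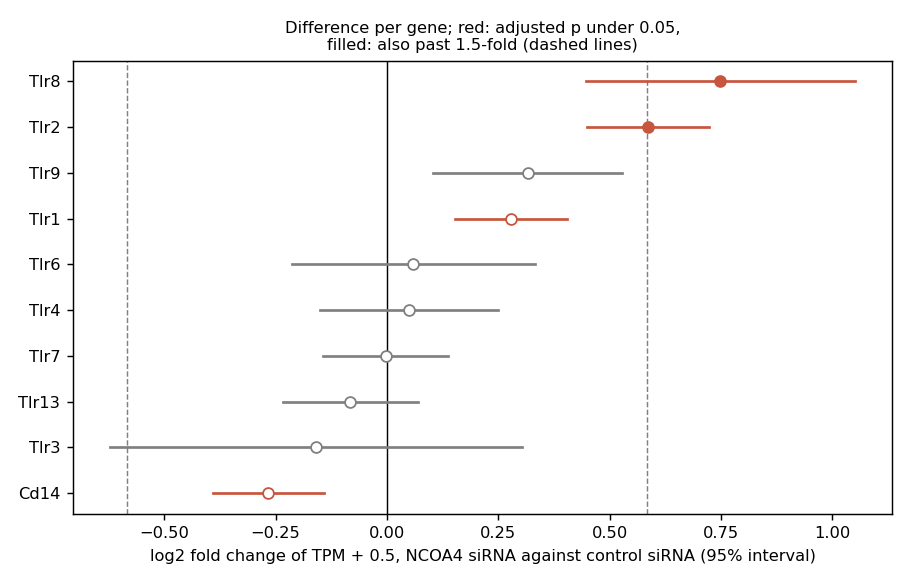
Log2 fold change of TPM + 0.5 for each of the 10 genes (horizontal axis, NCOA4 siRNA against control siRNA) with its 95% interval from limma. Red marks an adjusted p under 0.05, filled circles also a fold change above 1.5 (dashed lines). Tlr8 and Tlr2 are filled, and Cd14 is the only red point below 0.

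Among the endosomal receptors, Tlr8 (ENSMUSG00000040522, chromosome X, 167242696 to 167264329, minus strand), a relative of the single-stranded RNA sensor Tlr7, had 10.3, 14.6 and 11.6 TPM with control siRNA and 21.7, 21.4 and 18.8 TPM with NCOA4 siRNA. The control libraries held 213, 317 and 216 Tlr8 reads, and the NCOA4 siRNA libraries 451, 419 and 406. The groups did not overlap, and the lowest NCOA4 siRNA library lay above the highest control library. The log2 fold change was 0.75 ± 0.128 (estimate ± standard error, adjusted p = 0.0237 by limma), the largest of the 10 genes. With all 6 libraries kept, the adjusted p of Tlr8 was 0.0580 when eBayes ran without a trend, which ended the call. It was 0.0741 once control replicate 3 was dropped, and 0.112, 0.109 and 0.0703 once NCOA4 siRNA replicate 1, 2 or 3 was dropped, while the log2 fold change stayed between 0.64 and 0.88.

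Tlr7 (ENSMUSG00000044583, chromosome X, 167304929 to 167330558, minus strand) lies 40599 bases from Tlr8 on the same strand. It had 39.2, 44.9 and 40.7 TPM with control siRNA and 40.5, 42.2 and 41.7 TPM with NCOA4 siRNA. The groups overlapped, and the 95% interval of its log2 fold change ran from -0.14 to 0.14 (adjusted p = 0.986 by limma). The ratio of Tlr8 to Tlr7, which does not depend on the scaling between libraries, was 0.264, 0.325 and 0.284 with control siRNA and 0.535, 0.508 and 0.450 with NCOA4 siRNA. Every NCOA4 siRNA ratio was above every control ratio (exact permutation test, two-sided p = 0.1, the smallest p that 20 arrangements allow, and 0.2 after adjustment over the 4 ratios computed). Neither gene shared a window of 100 bases with another annotated transcript.

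Tlr9 (ENSMUSG00000045322, chromosome 9, 106222598 to 106226883, plus strand), the receptor for unmethylated CpG DNA, had 9.81, 8.78 and 10.6 TPM with control siRNA and 12.2, 11.4 and 13.0 TPM with NCOA4 siRNA. The groups did not overlap, but the log2 fold change of 0.32 (standard error 0.0890) had an adjusted p of 0.0997 by limma. Of the 16 alternatives, limma-voom on the rebuilt reads alone brought it under the threshold (adjusted p = 0.0446). Tlr13 (ENSMUSG00000033777, chromosome X, 106143204 to 106160493), which senses bacterial ribosomal RNA, had 56.4, 64.6 and 56.9 TPM with control siRNA and 57.3, 56.9 and 53.5 TPM with NCOA4 siRNA. The groups overlapped, with a log2 fold change of -0.08 and a 95% interval from -0.23 to 0.07 (adjusted p = 0.513 by limma). Without control replicate 2 the log2 fold change of Tlr13 was -0.02, and without NCOA4 siRNA replicate 3 it was -0.05. Tlr3 (ENSMUSG00000031639, chromosome 8, 45395665 to 45411080), the receptor for double-stranded RNA, had 1.37, 1.77 and 1.14 TPM with control siRNA and 1.12, 1.34 and 1.18 TPM with NCOA4 siRNA. It had only 31 to 56 reads per library, and the 95% interval of its log2 fold change was wide, from -0.62 to 0.30 (adjusted p = 0.683 by limma). A rise of 1.5-fold lies outside this interval and a fall of 1.5-fold lies inside it. How far the depth set its width was not tested. The log2 fold change of Tlr3 was -0.16, and ran from -0.27 without control replicate 3 to -0.03 without control replicate 2. The annotated antisense gene Gm45542, which overlaps Tlr3, was at 0 in every library. Tlr8 made up 8.83% to 10.8% of the summed TPM of the 5 endosomal receptors with control siRNA and 14.6% to 16.3% with NCOA4 siRNA.

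The LPS receptor complex was also compared within libraries. The ratio of Cd14 to Tlr4 was 22.1, 19.7 and 23.2 with control siRNA and 16.0, 17.8 and 18.3 with NCOA4 siRNA. The groups did not overlap (exact permutation test, two-sided p = 0.1, and 0.2 after adjustment over the 4 ratios). Ly96, the Tlr4 partner that holds LPS, had 22.5, 16.8 and 18.97 TPM with control siRNA and 28.3, 21.4 and 23.2 TPM with NCOA4 siRNA, or a log2 fold change of 0.32 (adjusted p = 0.240 by limma). The value for Ly96 ran from 0.20 when NCOA4 siRNA replicate 1 was dropped to 0.42 when control replicate 1 was. Its ratio to Tlr4 was 0.363 ± 0.0899 in control cells and 0.431 ± 0.0400 in NCOA4 siRNA cells (SD, n = 3 each), with overlap (exact permutation test, two-sided p = 0.3).

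**Figure D3:**
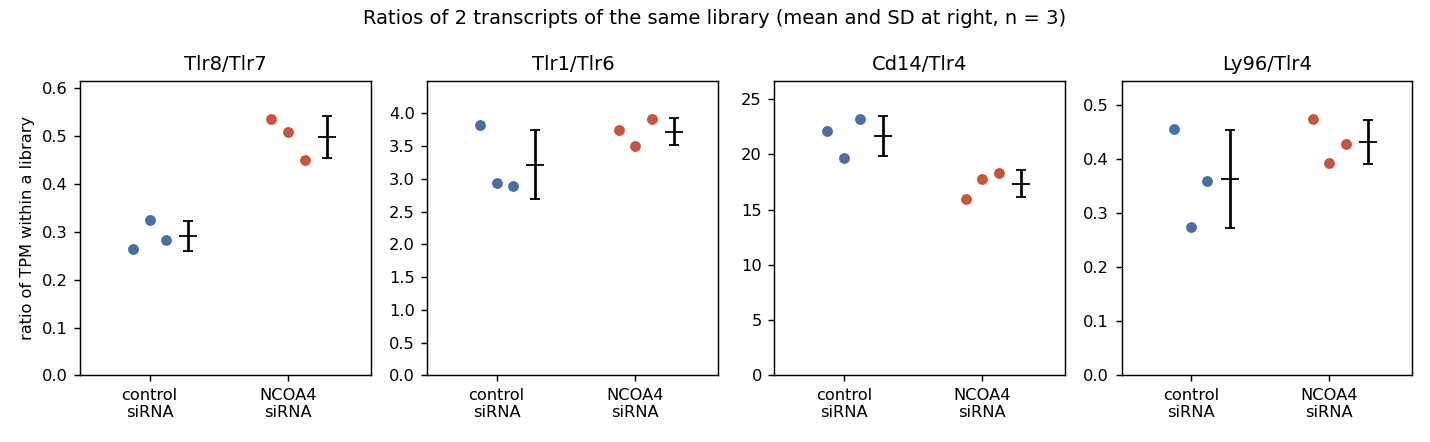
Ratio of TPM between 2 genes of the same library (vertical axis, from 0) in control siRNA and NCOA4 siRNA libraries (points), with mean and SD at the right. The Tlr8 to Tlr7 ratio is higher and the Cd14 to Tlr4 ratio lower in all 3 NCOA4 siRNA libraries, and the other 2 ratios overlap.

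The genes around the receptors were read from 9 lists with 97 genes, of which 82 were tested. Of these, 13 had an adjusted p under 0.05 by limma, 8 higher and 5 lower, and 2 were called, where the shares among all tested genes were 5.42% and 1.18%. Their median log2 fold change was 0.05, and the medians of the single lists ran from -0.07 for the induced transcripts to 0.12 for adaptors and for transcription factors, 0.17 for co-receptors and 0.49 for the other Toll-like receptors, of which 1 was tested. Of the other mouse Toll-like receptors, Tlr11 and Tlr12 were at 0 in every library, and the flagellin receptor Tlr5 rose by a log2 fold change of 0.49 (adjusted p = 0.0292 by limma), with a mean of 6.29 ± 0.416 TPM in control cells and 9.06 ± 0.739 TPM in NCOA4 siRNA cells (SD, n = 3 each).

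Among 7 chaperones and trafficking factors, 1 rose and 0 fell. This was Unc93b1, the carrier of the endosomal receptors, at 218, 207 and 233 TPM with control siRNA and 299, 288 and 300 TPM with NCOA4 siRNA. Its groups did not overlap, and its log2 fold change was 0.43 ± 0.0504 (estimate ± standard error, adjusted p = 0.00735 by limma), with an adjusted p of 0.0528 without NCOA4 siRNA replicate 1. Among 10 endolysosomal proteases and nucleases, of which 8 were tested, the exonuclease Pld4, which trims the nucleic acids that endosomal receptors sense, rose from 187 ± 7.53 to 248 ± 1.69 TPM (SD, n = 3 each, log2 fold change 0.41, adjusted p = 0.00461 by limma). The cathepsins Ctsl and Ctsb, lysosomal proteases of the kind that cleave endosomal receptors, fell by 0.33 and 0.24 on the log2 scale, with adjusted p-values of 0.00751 and 0.0337 by limma. The cathepsins Ctss and Ctsk were higher without overlap, by 0.10 and 0.70, at adjusted p-values of 0.205 and 0.112 by limma. Ctsk had a control mean of only 1.01 TPM. Of the 8 tested genes of this list, 6 log2 fold changes were positive and 2 negative. Rnaset2a and Rnaset2b, near-identical copies that reads cannot easily tell apart, fell under the filter. How far their shared sequence lowered these values was not tested.

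Of 6 adaptors, 1 rose. It was Pik3ap1, a link from the receptors to phosphoinositide 3-kinase, with a log2 fold change of 0.19 (adjusted p = 0.0438 by limma). Myd88, the adaptor of every receptor here except Tlr3, went from 89.4 ± 4.24 to 99.6 ± 1.64 TPM (SD, n = 3 each) without passing the threshold (adjusted p = 0.111 by limma). Ticam1, the adaptor of Tlr3 and of internalised Tlr4, had 23.1 ± 1.32 and 20.6 ± 1.43 TPM (SD, n = 3 each, adjusted p = 0.246 by limma). Of 22 tested kinases and ubiquitin ligases, 1 rose, the Myd88-associated kinase Irak1, with a log2 fold change of 0.27 (adjusted p = 0.0171 by limma). Of 7 transcription factors, 1 rose, Irf7, which acts downstream of Tlr7 and Tlr9, with a log2 fold change of 0.42 (adjusted p = 0.0237 by limma).

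Of 9 tested negative regulators, 2 rose and 1 fell. The deubiquitinase Cyld and the phosphatase Inpp5d had log2 fold changes of 0.37 and 0.20, and the transcriptional repressor Atf3 fell by 0.31 on the log2 scale, with adjusted p-values of 0.0273, 0.0434 and 0.0396 by limma. Of 25 transcripts that receptor engagement is known to induce, 18 were tested and 7 fell under the filter. At an adjusted p under 0.05, 0 of the 18 rose and 2 fell, Ccl3 and Ccl4. These were also the called genes of these lists, with log2 fold changes of -0.95 and -0.93 (adjusted p = 0.00391 and 0.00127 by limma). Over all 18, 7 log2 fold changes were positive and 11 negative, and they ranged from -0.95 to 0.74. The largest positive values, 0.74 for Il1b and 0.61 for Nos2, had adjusted p-values of 0.155 and 0.170 by limma. Their control means were low, at 2.63 and 0.752 TPM. These 2 were higher without overlap, and 6 of the 18 were lower without overlap. Among all tested genes the shares were 16.6% and 11.8%. Besides Ccl3 and Ccl4, the lower ones were Tnf, Ier3, Acod1 and Zfp36, with adjusted p-values from 0.0615 to 0.168 by limma. The Rnaset2 copies, Ctss, Ctsk, Tlr11, Tlr12, Cdh5, Il1b, Nos2, Tnf, Ier3, Acod1, Zfp36 and the macrophage markers named were picked after their values were seen. Of 4 tested co-receptors and binding partners, 0 passed the threshold. Apart from Pld4, Ccl3 and Ccl4, each of the 13 genes lost its adjusted p under 0.05 when at least 1 library was left out.

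**Figure D4:**
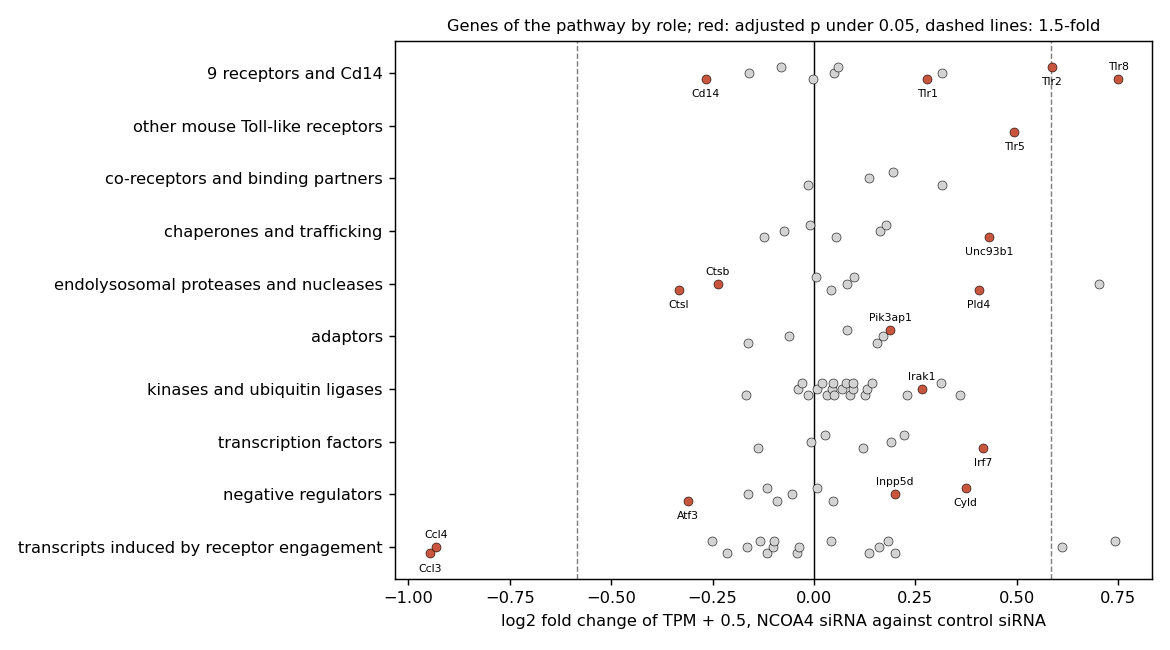
Log2 fold change of TPM + 0.5 (horizontal axis, NCOA4 siRNA against control siRNA) of every tested gene, with the 9 receptors and Cd14 in the top row and the 9 lists below by role. Red points with names had an adjusted p under 0.05 by limma, and dashed lines mark 1.5-fold. Of the lists, Ccl3 and Ccl4 alone have red points past a dashed line.

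**Figure D5:**
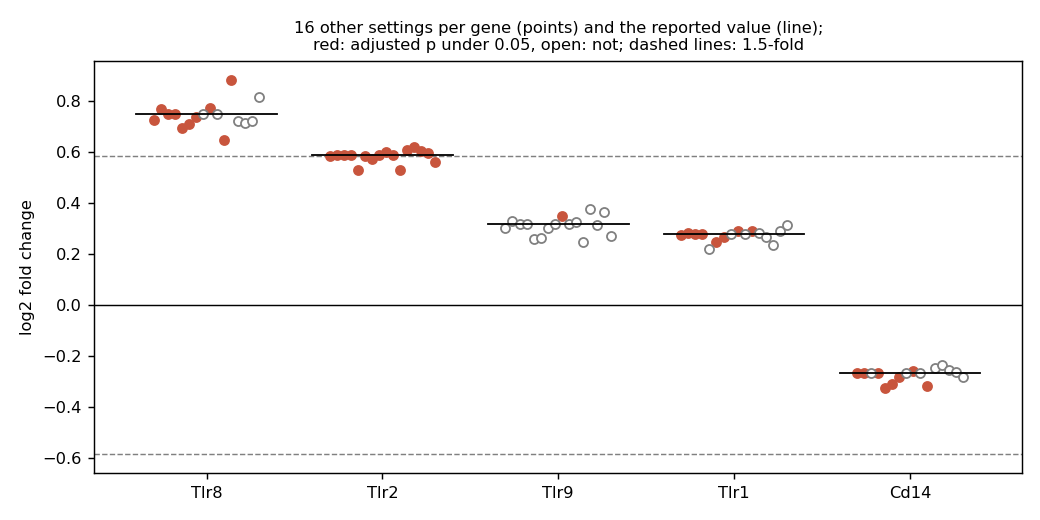
Log2 fold changes (vertical axis) of Tlr8, Tlr2, Tlr9, Tlr1 and Cd14 under the 16 alternative settings (points) beside the reported value (line). Red points had an adjusted p under 0.05, which held in 16 settings for Tlr2, in 10 for Tlr8, in 8 each for Tlr1 and Cd14, and in 1 for Tlr9. All 5 genes kept their direction, which the changed filters, eBayes without a trend and the replicate block cannot alter.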

How the data were processed

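J774 cells given control siRNA or NCOA4 siRNA were profiled in 3 libraries each, grouped by their labels. The authors deposited TPM per library, without scaling between libraries. The submitters' processing notes name mm10, Trimmomatic 0.33, HISAT2 2.1.0, featureCounts and edgeR. Of 55487 identifiers, 55227 were named from GENCODE M21 (GRCm38).

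Genes whose TPM averaged 0.5 or more over the 6 libraries were tested with limma 3.58.1 (R 4.3.3) on log2(TPM + 0.5), with lmFit and eBayes with a trend, and Benjamini-Hochberg adjustment over 13829 genes. The scale understates changes of low genes. The files hold TPM, so a count test was not the main test. Ratios were tested by an exact permutation test (SciPy 1.17.1), whose smallest p is 0.1. Reads were rebuilt from TPM and exon length. They were whole within 0.02 reads in all 6 libraries for 98.5% of the 21096 genes above 0, and served for depth and limma-voom. The limma p-values set the difference between the groups against the spread between these replicates, which eBayes moderates over all tested genes.

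The genes, lists and tests were chosen with earlier results of these data known. Named are the 10 genes, Ncoa4, Ly96, Unc93b1, Myd88, Ticam1, every called gene of the lists, and up to 4 genes per list with the smallest adjusted p under 0.05. Other settings tried were a pseudocount of 1 or 0.1, dropping the filter or raising it to a mean of 5 TPM, centring libraries on their medians, quantile normalization, rescaling without mitochondrial genes, eBayes without a trend, limma-voom, a replicate block, TPM + 0.5 in ratios, and each library left out.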

Additional observations from a re-analysis of the deposited data

How the results depend on the processing

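Among the 10 genes, 1 in place of 2 was called with a pseudocount of 1, median centring, quantile normalization, rescaling without mitochondrial genes, eBayes without a trend or the replicate block, and 0 to 2 with a library left out. Tlr2 was lost under the first 4 of these, on its fold change, and Tlr8 under the other 2, at adjusted p-values of 0.0580 and 0.0583 by limma. The number with an adjusted p under 0.05 was 1 in place of 4 with eBayes without a trend or the replicate block, and 1 to 4 with a library left out. Of the list genes, 13 passed, but 8 without the filter, 4 with the block, and 3 to 14 with a library left out, and 2 were called throughout. Over all genes, 750 passed, but 499 without the filter, 404 without a trend, 1485 with limma-voom, 161 with the block, and 127 to 807 with a library left out. The 163 called genes became 87 with the block and 77 to 172 with a library left out. Of them, 73.0% were higher, against 60.7% with median centring and 61.9% with quantile normalization. The log2 fold change of Tlr4 turned to -0.0088 with median centring and to -0.016 without control replicate 1 (up to 0.13 without control replicate 2). That of Tlr6 turned to -0.053 without control replicate 1 (up to 0.13 without NCOA4 siRNA replicate 3). That of Tlr7 was 0.0037 with limma-voom and ran from -0.044 without control replicate 1 to 0.052 without control replicate 2, with 0.013 without NCOA4 siRNA replicate 1. With a library left out, the log2 ratio differences ranged from 0.71 to 0.86 (Tlr8 to Tlr7), 0.15 to 0.35 (Tlr1 to Tlr6), -0.38 to -0.26 (Cd14 to Tlr4) and 0.09 to 0.45 (Ly96 to Tlr4). The causes of these shifts were not tested. Same-numbered replicates did not deviate together (r of 0.03, -0.06 and 0.06), so the block rests on a shared number alone. Tlr3 rested on 31 to 56 reads per library, the fewest of the 10 genes, and was not tested with a mean TPM of at least 5.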
